A study of Mus musculus with 15 samples.

Results

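The genes described are 10 that encode myosin light chains and the kinases that phosphorylate them, of 22180 genes measured. They were taken by name: the essential light chains Myl1, Myl3, Myl4 and Myl6b, the regulatory light chains Myl2 and Mylpf, and the kinases Mylk, Mylk2, Mylk3 and Mylk4. RNA of whole mouse eye ("eyeball") was hybridised to 15 Affymetrix Mouse Gene 2.1 ST arrays, and each value below is a log2 level after RMA, the authors' background correction, normalisation and probe summary. Levels are compared between groups within a gene, never between genes, since probes differ in brightness.

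The 4 groups were wild type C57BL/6J littermates at 6 months of age (4 arrays), R6/1 mice at 6 months (3 arrays), wild type littermates at 9 weeks (4 arrays) and R6/2 mice at 9 weeks (4 arrays). R6/1 and R6/2 are Huntington's disease (HD) models that carry a transgene for the first exon of human huntingtin with an expanded CAG repeat, of 131 ± 3.1 (SD) repeats in R6/1 and 162 ± 2.8 (SD) in R6/2. The human huntingtin promoter drives the transgene, and the mice model a fragment and not the full-length protein. Each sample was a pool of RNA per the methods, so p-values measure only the spread between pools. The study asked which genes of the eye are deregulated in each model at a symptomatic age, against wild type of the same age.

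The methods count 3 wild type and 4 R6/1 samples at 6 months, whereas the labels give 4 and 3, and the array labelled WT replicate 4 stood apart from its group. Opn1sw, the short-wave cone opsin, was at 3.48 in that array, at 7.46 to 7.84 in the other 3 wild type arrays of that age and at 2.51 to 3.01 in R6/1. Casq2, a calsequestrin of muscle, was at 5.14 in that array, at 4.86 to 5.24 in the other 3 and at 6.17 to 7.19 in R6/1. Which group the array belongs to was not tested. The labels were kept, and fold changes that the array moved are given with and without it. It also enters the common error of the fit and so bears on the R6/2 tests. Genes were tested with limma, and a gene was called where its unadjusted p was under 0.05 and its adjusted p under 0.20, the thresholds of the methods. Adjustment was by Benjamini-Hochberg over the 11090 genes with the higher interquartile range across arrays. Of the 10 genes, 8 passed that filter, and Myl3 and Mylk3 did not.

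A myosin molecule of muscle carries heavy chains that hold the motor, and each head binds an essential and a regulatory light chain that stiffen the lever arm. Striated and smooth muscle use different light chains, as do fast, slow and cardiac fibres. Calcium and calmodulin switch on light chain kinases, which phosphorylate the regulatory light chain: this starts contraction in smooth muscle and tunes its force in striated muscle. Whole eye can hold striated fibres of the extraocular muscles that stay on the globe, smooth muscle of iris, ciliary body and vessels, and the myoepithelial dilator of the pupil. In such bulk RNA, fewer cells of a type and less RNA per cell cannot be told apart.

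Of the 10 genes, Mylk4 had the largest differences in both models. Without the array labelled WT 6 months replicate 4 it was the 1 gene of the 10 called lower in each model. The share of all genes called lower was then 0.361% in R6/1 and 0.28% in R6/2. In R6/1 Mylk4 was at 43.0% of wild type as labelled and at 26.5% without the array labelled WT replicate 4. In R6/2 it was at 33.6% with or without that array. With the groups as labelled and the main fit on all 15 arrays, none of the 10 was called in either model. Other fits called Mylk4 lower in R6/1 and up to 5 of the 10 lower in R6/2. The 5 came with the replicate number as a block, though the numbers pair no arrays at 9 weeks. That fit called 339 of all genes lower in R6/2 in place of 11. The fast light chains Mylpf and Myl1 lay lower in R6/2 by less than 1 on the log2 scale. In R6/1 as labelled their changes were smaller than their errors. Neither was called in the main fit with or without that array. The block called Mylpf in R6/2 (adjusted p = 0.173), and array weights called Myl1 there (adjusted p = 0.198). With array weights 1107 of all genes were called lower in R6/2 in place of 11. The cardiac and slow forms Myl2, Myl3 and Myl4 were not called in either model, except Myl4, higher in R6/1 with array weights (adjusted p = 0.147). With those weights 21 of all genes were called higher in R6/1 in place of 4. Across age, Mylk, the kinase of smooth muscle, was called lower in wild type eyes at 6 months than at 9 weeks (adjusted p = 0.0662). In that contrast 11.5% of all genes were called lower, and age and cohort cannot be told apart.

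Promoters are shown for the gene with the largest change, Mylk4, for the fast pair Mylpf and Myl1, whose levels were correlated with it over the arrays, and for Mylk, whose level was hardly correlated with it. Each is the window from 250 bases before to 50 after 1 transcript start in RefSeq, build GRCm38.p6, read 5' to 3' on the gene's strand. In all 4 genes that start lies inside the RefSeq gene and is not its outermost one. The windows are chr13:32783915-32784214 (minus strand) for Mylk4, chr7:127211358-127211657 (plus) for Mylpf, chr1:66945007-66945306 (minus) for Myl1 and chr16:34784700-34784999 (plus) for Mylk. Capitals mark CAGCTG, a form of the E-box that myogenic factors of the MyoD family bind, and in Mylk4 also a match to the MEF2 consensus.
Mylk4: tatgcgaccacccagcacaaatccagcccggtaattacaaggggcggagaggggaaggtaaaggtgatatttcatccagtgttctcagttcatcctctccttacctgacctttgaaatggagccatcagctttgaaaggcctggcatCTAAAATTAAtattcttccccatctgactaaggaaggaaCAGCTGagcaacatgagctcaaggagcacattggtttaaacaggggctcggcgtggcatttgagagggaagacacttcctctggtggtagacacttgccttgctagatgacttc
Mylpf: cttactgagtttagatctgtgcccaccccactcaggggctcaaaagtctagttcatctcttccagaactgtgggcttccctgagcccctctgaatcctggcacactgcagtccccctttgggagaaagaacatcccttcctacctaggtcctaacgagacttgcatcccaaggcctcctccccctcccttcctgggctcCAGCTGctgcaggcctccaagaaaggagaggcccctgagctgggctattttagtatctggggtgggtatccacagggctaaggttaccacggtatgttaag
Myl1: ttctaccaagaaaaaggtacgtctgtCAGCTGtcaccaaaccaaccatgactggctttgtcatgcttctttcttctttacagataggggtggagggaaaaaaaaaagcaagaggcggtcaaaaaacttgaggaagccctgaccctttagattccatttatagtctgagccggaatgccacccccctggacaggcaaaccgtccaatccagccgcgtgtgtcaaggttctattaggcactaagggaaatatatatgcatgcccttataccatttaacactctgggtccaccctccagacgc
Mylk: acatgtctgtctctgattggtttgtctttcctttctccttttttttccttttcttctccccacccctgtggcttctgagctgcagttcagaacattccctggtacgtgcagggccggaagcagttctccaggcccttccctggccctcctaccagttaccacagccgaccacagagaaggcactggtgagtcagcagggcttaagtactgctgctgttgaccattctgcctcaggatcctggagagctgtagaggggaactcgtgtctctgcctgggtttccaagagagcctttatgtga

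CAGCTG, the same on both strands, began 64 bases before the start in Mylk4, 51 before it in Mylpf and 224 before it in Myl1. Of the 9 genes with a window it was present in 4, the fourth being Myl2, and 16.3% of the 32851 windows in the table hold it. Here and below a gene counts if any of its windows holds the motif, whereas the shares are per window. Since a gene such as Myl2 has more than 1 window, the counts and shares are not like for like. The MEF2 match, searched on both strands, began 103 bases before the start in Mylk4 and was found in 1 of the 9 genes, against 3.19% of all windows. The general E-box, CANNTG, which includes CAGCTG, was in 7 of 9 genes and in 72.3% of all windows. The Mylk window holds none of these, nor the CArG box that serum response factor binds, which was found in Myl3 alone of the 9 and in 1.63% of all windows. Mylk2 has no entry.

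Mylk4 encodes a member of the light chain kinase family that is expressed in striated muscle. In wild type mice at 6 months its level was 6.71, 6.46, 6.25 and 3.68 in replicates 1 to 4, the last being the array that stood apart. In R6/1 it was 5.29, 4.54 and 3.85. All 3 R6/1 arrays lay below wild type replicates 1 to 3 and above replicate 4, so the groups as labelled overlapped. At 9 weeks the level was 6.04, 5.36, 5.64 and 5.65 in wild type and 4.58, 3.39, 4.15 and 4.28 in R6/2. Every R6/2 array lay below every wild type array of its age.

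As labelled, the log2 fold change of Mylk4 in R6/1 was -1.22 (SE 0.54, 95% confidence interval -2.35 to -0.08, adjusted p = 1.00). Without the array labelled WT replicate 4 it was -1.92 (SE 0.32, interval -2.60 to -1.23, adjusted p = 0.0183), which was called. The replicate numbers at 6 months were taken as pairs from the same expression values and not from the labels. With the number as a block the adjusted p was 0.0013, which rests on that pairing. That array has no R6/1 partner and so drops out of the blocked estimate, which is the same -1.92 and no further check of it. In the R6/1 comparison as labelled 0 of the 10 genes were called lower, against 0.018% of all genes tested, and 0 were called higher, against 0.0361%. Fitted on its own at 6 months, the comparison called 0 of the 10, against 0% lower and 0.00902% higher of all genes. Without that array 1 of the 10 genes was called lower, against 0.361% of all genes, and 0 higher, against 0.0992%. With the block 1 of the 10 was called lower, and of all genes tested 57 were called lower and 19 higher in place of 2 and 4.

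In R6/2 the log2 fold change of Mylk4 was -1.57 (SE 0.50, interval -2.62 to -0.53, adjusted p = 0.373) with all arrays in the fit. The estimate does not use the 6-month arrays, but its error does. Without the array labelled WT 6 months replicate 4 the SE was 0.28 and the adjusted p 0.0279, and with each age fitted on its own the adjusted p was 0.0469. Both passed the threshold, as did the fit without WT 9 weeks replicate 3, at an adjusted p of 0.164. Without WT 9 weeks replicate 3, 2 of the 10 genes were called lower, and 598 of all genes were, in place of 11. The background in R6/2 was 0.0992% of genes called lower as labelled, 0.28% without the array labelled WT 6 months replicate 4 and 0.271% with each age on its own. Mylk4 was the 1 gene of the 10 called in each of the last 2 fits, 0 of the 10 were called higher in any of the 3, and the background of genes called higher was 0.0721%, 0.189% and 0.271%. The change in R6/1 minus that in R6/2 was 0.36 (SE 0.73) as labelled and -0.34 (SE 0.43, interval -1.25 to 0.56) without that array, so no difference between the models was detected for Mylk4 and its sign turned with 1 array.

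**Figure D1:**
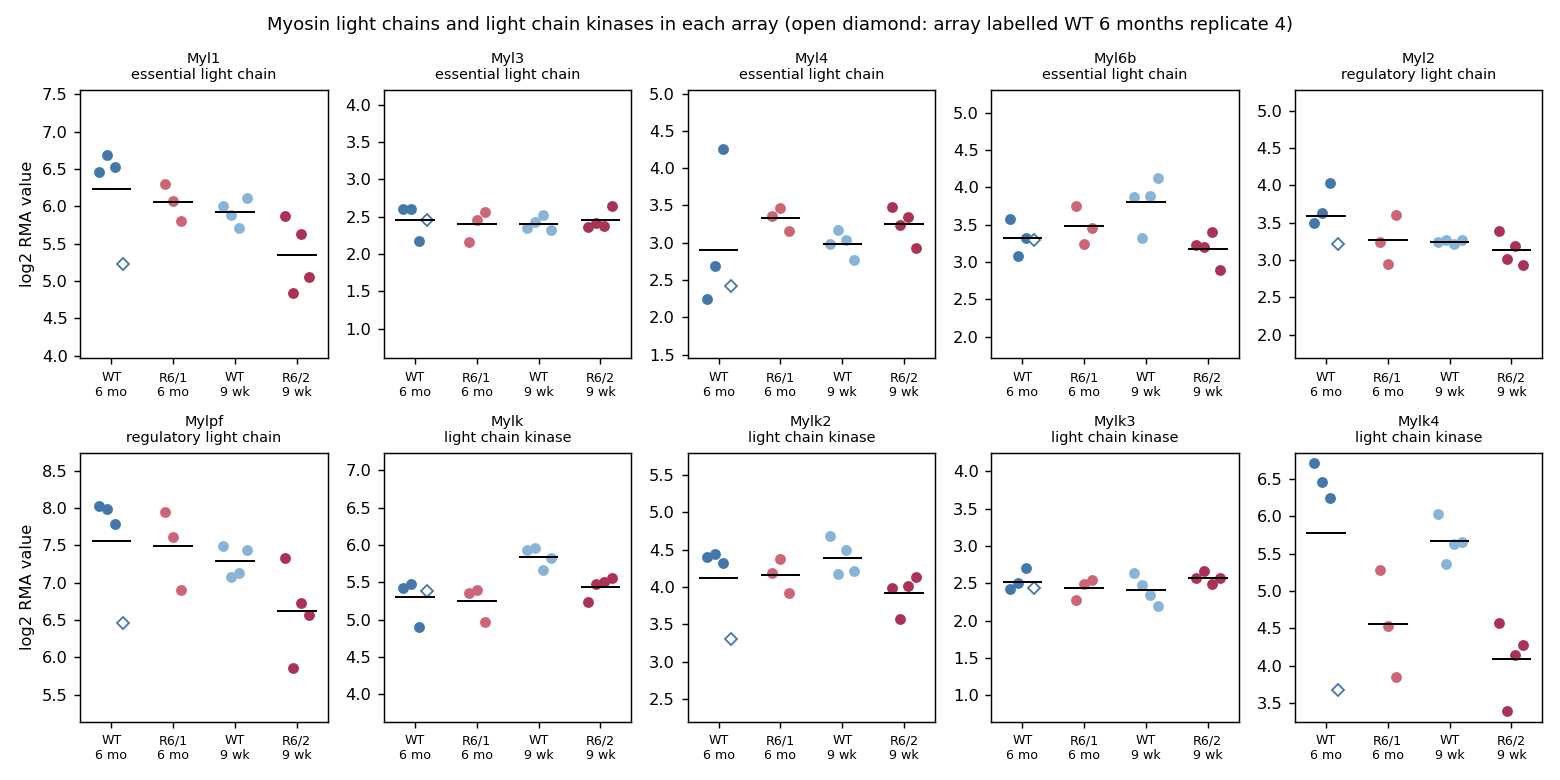
Log2 RMA level (y axis, 3.6 log2 units in every panel) of each gene in each of the 15 arrays, by group (x axis); points are arrays, bars group means, and the open diamond is the array labelled WT 6 months replicate 4. In the Mylk4 panel the 4 R6/2 arrays, at 3.39 to 4.58, lie below the wild type arrays of 9 weeks, at 5.36 to 6.04, and the open diamond at 3.68 lies below all 3 R6/1 arrays.

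Mylpf encodes the regulatory light chain of fast skeletal fibres, the substrate of the skeletal kinase. Its level was 8.02, 7.99, 7.79 and 6.46 in wild type replicates 1 to 4 at 6 months and 7.95, 7.61 and 6.90 in R6/1. At 9 weeks it was 7.49, 7.08, 7.13 and 7.44 in wild type and 7.33, 5.85, 6.73 and 6.57 in R6/2. R6/2 replicates 2, 3 and 4 lay below all wild type arrays of 9 weeks, and R6/2 replicate 1 lay within them. The log2 fold change in R6/2 was -0.66 (SE 0.34, adjusted p = 0.541), or 63.1% of wild type, and the adjusted p was 0.413 without the array labelled WT 6 months replicate 4. In R6/1 it was -0.08 (SE 0.36) as labelled and -0.45 (SE 0.30) without that array, with adjusted p of 1.00 in both fits.

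Myl1, the essential light chain that shares fast fibres with Mylpf, followed it closely from array to array. Its level was 6.46, 6.69, 6.53 and 5.23 in wild type at 6 months, 6.31, 6.07 and 5.81 in R6/1, 6.01, 5.89, 5.71 and 6.12 in wild type at 9 weeks and 5.87, 4.84, 5.63 and 5.06 in R6/2. R6/2 replicate 2 was the lowest array for Myl1, as it was for Mylpf and Mylk4. The log2 fold change in R6/2 was -0.58 (SE 0.28, adjusted p = 0.498). In R6/1 it was -0.17 (SE 0.30) as labelled and -0.50 (SE 0.23, adjusted p = 1.00) without the array labelled WT replicate 4, when no R6/1 array overlapped a wild type array. Non-overlap of that kind held for 2 of the 10 genes, Myl1 and Mylk4, against 3.35% of all genes tested, and for 0 of the 10 as labelled, against 1.9%. No gene of the 10 lay wholly above wild type in R6/1, against 1.15% of all genes as labelled and 2.58% without that array.

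Mylk2, the kinase of skeletal muscle that phosphorylates Mylpf, was at 4.41, 4.45, 4.32 and 3.31 in wild type at 6 months and at 4.19, 4.38 and 3.93 in R6/1. It was at 4.68, 4.17, 4.50 and 4.22 in wild type at 9 weeks and at 3.99, 3.57, 4.01 and 4.14 in R6/2. The 4 R6/2 arrays lay just below the wild type arrays of their age. The log2 fold change was -0.47 (SE 0.23, adjusted p = 0.502) in R6/2 and 0.05 (SE 0.24) in R6/1, where it turned to -0.23 (SE 0.19) without the array labelled WT replicate 4. None of these was called.

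Mylk encodes the kinase of smooth muscle and non-muscle cells. At 9 weeks it was at 5.93, 5.96, 5.66 and 5.83 in wild type and at 5.23, 5.48, 5.50 and 5.55 in R6/2, and the groups did not overlap. The log2 fold change was -0.40 (SE 0.15, interval -0.73 to -0.08, adjusted p = 0.401), or 75.6% of wild type. With array weights it was called lower (adjusted p = 0.0263), where 1107 of all genes were, in place of 11. It was also called with the array interquartile range as covariate (adjusted p = 0.145), quantile normalization (0.188) and the replicate block (0.193). Those fits called 179, 52 and 339 of all genes lower. With Mylk2 and Mylk4, Mylk made 3 of the 10 genes whose R6/2 arrays lay wholly below wild type, against 2.06% of all genes tested. None lay wholly above wild type, against 4.86%. At 6 months Mylk was at 5.42, 5.48, 4.90 and 5.39 in wild type and at 5.36, 5.39 and 4.97 in R6/1, and the log2 fold change of -0.06 (SE 0.17), or -0.02 (SE 0.18) without the array labelled WT replicate 4, was smaller than its error.

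Myl6b encodes an essential light chain found in slow muscle and in non-muscle tissue. Its level was 3.87, 3.32, 3.88 and 4.12 in wild type at 9 weeks and 3.23, 3.20, 3.40 and 2.89 in R6/2. R6/2 replicate 3 lay above wild type replicate 2, so the groups overlapped at 1 pair of arrays. The log2 fold change was -0.62 (SE 0.18, adjusted p = 0.349), or 65.1% of wild type. Without WT 9 weeks replicate 3 it was called, at an adjusted p of 0.153, where 598 of all genes were called lower in place of 11. Myl6b was also called with array weights (adjusted p = 0.147), the array interquartile range as covariate (0.158) and the replicate block (0.173). Those fits called 1107, 179 and 339 of all genes lower. At 6 months the level was 3.58, 3.08, 3.32 and 3.29 in wild type and 3.75, 3.24 and 3.46 in R6/1, a log2 fold change of 0.16 (SE 0.19), or 0.15 (SE 0.21) without the array labelled WT replicate 4. The change in R6/1 minus that in R6/2 was 0.78 (SE 0.26, adjusted p = 1.00) and was not called. In that test 0 of the 10 genes and 0% of all genes were called in either direction.

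Myl2, the regulatory light chain of slow and cardiac fibres, was at 3.50, 3.63, 4.03 and 3.21 in wild type at 6 months, at 3.24, 2.95 and 3.60 in R6/1, at 3.21 to 3.27 in wild type at 9 weeks and at 2.93 to 3.38 in R6/2. Its log2 fold change was -0.33 (SE 0.19) in R6/1, -0.46 (SE 0.19, adjusted p = 1.00) without the array labelled WT replicate 4, and -0.12 (SE 0.18) in R6/2. Myl4, the essential light chain of atrial and embryonic muscle, was spread most widely in wild type at 6 months, at 2.25, 2.69, 4.25 and 2.42. The R6/1 arrays, at 3.16 to 3.46, and the R6/2 arrays, at 2.93 to 3.48, overlapped wild type. Its log2 fold changes of 0.42 (SE 0.33) in R6/1, 0.26 (SE 0.35) there without the array labelled WT replicate 4, and 0.26 (SE 0.31) in R6/2 were not called.

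Myl3, the essential light chain of slow and ventricular muscle, stayed between 2.16 and 2.64 in all 15 arrays. Mylk3, the cardiac kinase, stayed between 2.20 and 2.70. Their means lay at the 32.9th and 34.5th percentile of all genes, and the files give no background level, so low expression cannot be told from none. Tested without the variance filter, their log2 fold changes ran from -0.08 to 0.16 in the 2 models, each with an SE of 0.11 to 0.13. The median log2 fold change over the 10 genes was -0.07 in R6/1 (-0.16 without the array labelled WT replicate 4) and -0.44 in R6/2, where the medians of all genes tested were 0.01, 0.02 and 0.03 in that order.

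**Figure D2:**
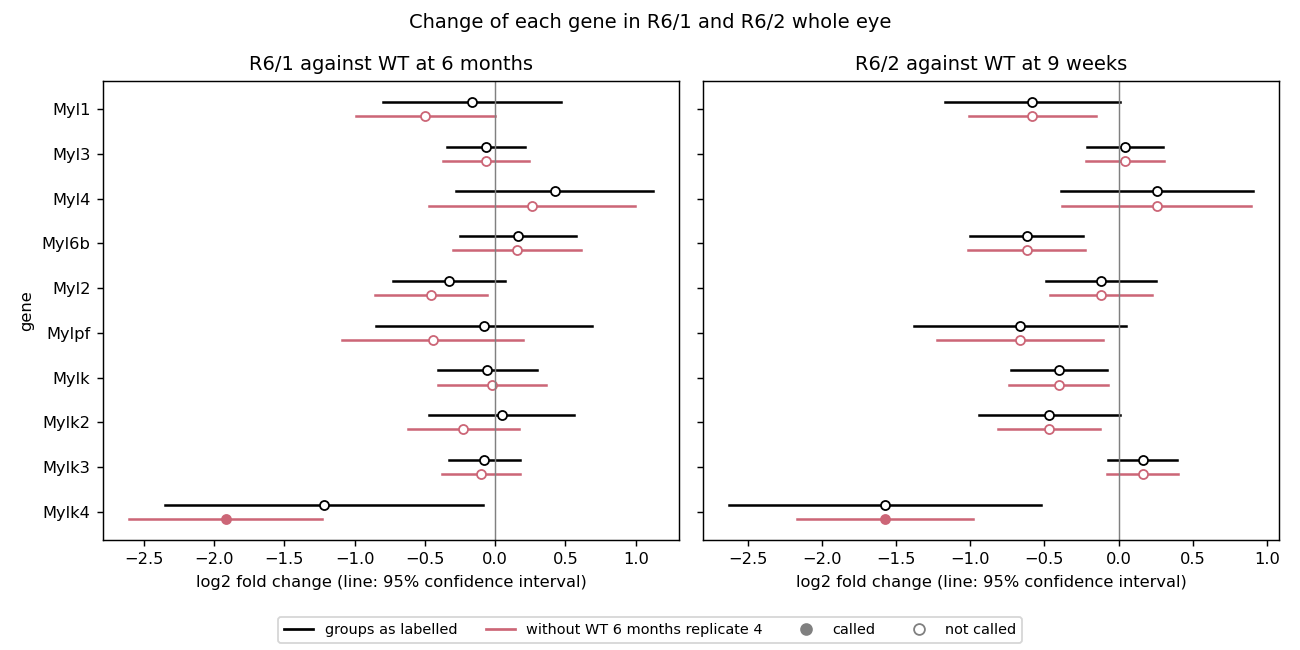
Log2 fold change (x axis) with 95% confidence interval (line) of each gene (y axis) in R6/1 at 6 months (left) and R6/2 at 9 weeks (right), with the groups as labelled (black) and without the array labelled WT 6 months replicate 4 (red); filled points were called. Mylk4 is the gene with filled points, at -1.92 in R6/1 and -1.57 in R6/2, both without that array.

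Between wild type groups, Mylk was lower at 6 months than at 9 weeks with a log2 difference of -0.55 (SE 0.15, adjusted p = 0.0662), and of -0.58 (adjusted p = 0.101) without the array labelled WT 6 months replicate 4. The 4 arrays of 6 months, at 4.90 to 5.48, lay below the 4 of 9 weeks, at 5.66 to 5.96. Myl6b was also called lower, at -0.48 (SE 0.18, adjusted p = 0.137), a call that ended without that array at an adjusted p of 0.22, and also without WT 6 months replicate 2 or WT 9 weeks replicate 1 or 4. When any 1 array was left out Mylk kept its direction with an adjusted p of 0.0379 to 0.196, but it missed the variance filter whenever 1 of the 4 wild type arrays of 9 weeks was left out. These 2 of 10 genes stood against 11.5% of all genes called lower and 7.74% called higher. As labelled no gene of the 10 was called higher: Myl1 was at 0.30 (SE 0.28), Myl2 at 0.35 (SE 0.18), Mylpf at 0.28 (SE 0.34) and Mylk4 at 0.11 (SE 0.50, adjusted p = 0.936). Without that array Myl1 (0.63, SE 0.22), Myl2 (0.47, SE 0.18) and Mylk4 (0.80, SE 0.30) were called higher at 6 months, with adjusted p of 0.146, 0.17 and 0.173, against 3.99% of all genes, and 1, Mylk, lower, against 8.74%. Mylpf, at 0.65 (SE 0.28, adjusted p = 0.231), was not. The call of Mylk4 rests on that array, and without WT 6 months replicate 1, 2 or 3 in its place the value was -0.207, -0.123 or -0.054. Myl4 was at -0.09 (SE 0.31) as labelled and was called lower, at -0.535 (adjusted p = 0.0499), without WT 6 months replicate 3. The 2 ages were separate cohorts, so age and cohort cannot be told apart, and these contrasts share their wild type arrays with the HD comparisons above.

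Over the 15 arrays, the 5 genes whose pattern was most like that of Mylk4 by Pearson's r were Tcap (0.97), Mb (0.95), Myh4 (0.95), Pvalb (0.94) and Myh2 (0.94). They encode titin cap, myoglobin, the fast heavy chain IIb, parvalbumin, which buffers calcium in fast fibres, and the fast heavy chain IIa. For Mylpf they were Myl1 (0.96), Myot (0.96), Tnni2 (0.96), Ppp1r3a (0.95) and Tnnt3 (0.94), of which Tnni2 and Tnnt3 encode the fast troponins I and T. For Mylk they were F11r (0.93), Rmnd5b (0.91), C030006K11Rik (0.90), Sbk1 (0.89) and Ppm1l (0.89), none of them a sarcomere gene. Among the 10 genes themselves r was 0.96 for Mylpf with Myl1, 0.84 for Mylpf with Mylk4, 0.83 for Myl1 with Mylk4 and 0.81 for Mylk2 with Mylk4, and it was 0.20 for Mylk with Mylk4. These are descriptions over arrays that share group and dissection. Without the array labelled WT 6 months replicate 4 each r of the 5 genes named for each of the 3 moved by less than 0.02.

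The tissue held striated muscle RNA, and its amount varied between arrays. The mean log2 level of 9 general striated muscle genes ran from 6.70 to 7.29 in wild type replicates 1 to 3 at 6 months, was 5.41 in replicate 4, and ran from 5.80 to 7.05 in R6/1, from 6.63 to 7.13 in wild type at 9 weeks and from 5.32 to 6.71 in R6/2. The 7 smooth muscle genes ran from 4.40 to 4.62, 4.42 to 4.58, 4.34 to 5.09 and 4.52 to 4.81 in the 4 groups in that order, and the 7 cardiac genes stayed between 3.38 and 3.94 in all arrays. Mylk4 was compared with striated muscle RNA within each array, by taking its level minus the mean of the 9 genes. This measure was chosen after the values were seen. It takes Mylk4 to move 1 for 1 with that mean, so it does not give the share of the change that moves with muscle. A difference of this kind shows unequal change and not which side moved.

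Relative to those genes, Mylk4 was at -0.42, -0.83, -0.45 and -1.73 in wild type at 6 months and at -1.76, -1.89 and -1.95 in R6/1. All 3 R6/1 arrays lay below all 4 wild type arrays, and just below that labelled replicate 4. The difference was -1.01, and -1.30 without the array labelled replicate 4. At 9 weeks Mylk4 was at -1.09, -1.36, -0.99 and -1.34 in wild type and at -2.14, -1.93, -2.22 and -1.37 in R6/2, a difference of -0.72. The R6/2 arrays lay lower in 4 of 4, but replicate 4 only just so. Mylpf, by the same measure, differed by 0.13 in R6/1 and 0.19 in R6/2, both higher in HD, with overlapping arrays. In R6/2 Myl2 (0.74), Myl4 (1.12) and Mylk3 (1.02), whose own levels were not called there, were higher by this measure. These differences are given as a description, since the measure was chosen after the values were seen. For Mylk4 a 2-sided exact test gave p = 0.0571 in R6/1 as labelled and 0.0286 in R6/2, each the smallest possible. Adjusted over the 10 genes these were 0.571 and 0.0714. In R6/2 Myl2, Myl4 and Mylk3, which went the other way, had the same p as Mylk4. Mb and Tcap, which are among the 9 genes, were themselves called lower in the fits without the array labelled WT 6 months replicate 4. Without these genes the difference for Mylk4 was -1.31 in R6/1 and -0.96 in R6/2. Leaving out genes that fell enlarges the difference by construction, so these values are no check of it.

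**Figure D3:**
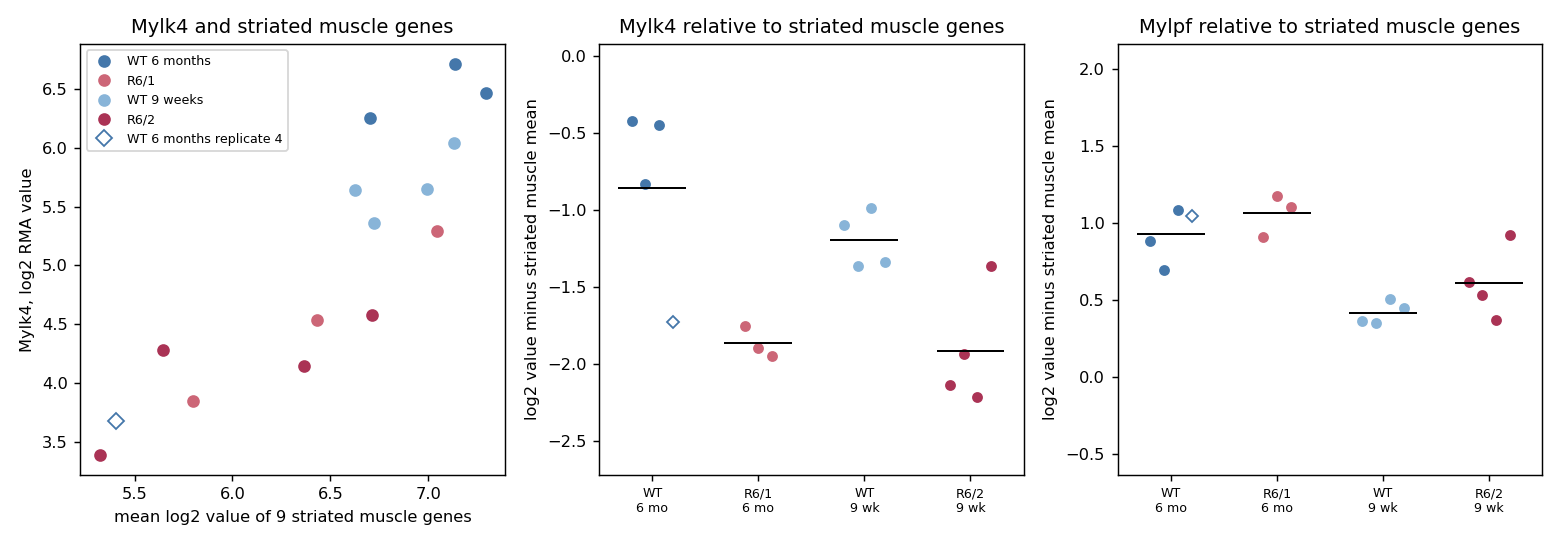
Left, Mylk4 level (y axis, log2) against the mean log2 level of 9 striated muscle genes (x axis) in the 15 arrays; middle and right, the level of Mylk4 and of Mylpf minus that mean in each array (y axis, log2) by group (x axis), with group means as bars and the array labelled WT 6 months replicate 4 as an open diamond. For Mylk4 the R6/1 arrays, at -1.95 to -1.76, lie below all wild type arrays of 6 months, while for Mylpf the groups of each age overlap.

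Some of the heavy chains that the light chains bind fell in part of the fits. Of 10 sarcomeric heavy chain genes, 8 passed the filter. As labelled, 0 were called in R6/1 and 1 in R6/2, Myh15, a heavy chain of extraocular muscle, at -1.68 (SE 0.32, adjusted p = 0.0735). With that labelling and each age fitted on its own, 0 fell in R6/1 and 3 in R6/2. Without the array labelled WT 6 months replicate 4, 3 of 7 tested fell in each model. Myh4 was then at -2.22 (SE 0.47, adjusted p = 0.0731) in R6/1 and -2.54 (SE 0.41, adjusted p = 0.011) in R6/2, Myh2 at -1.99 and -1.77, and Myh15 at -1.59 and -1.68. The median over the 10 was -0.52 in R6/1 as labelled, -0.93 without that array and -1.06 in R6/2.

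Fast fibre genes went the same way. Of 9 measured, 0 were called in R6/1 and 2 in R6/2 as labelled, 0 and 4 with each age fitted on its own, and 2 and 5 without that array. Pvalb, parvalbumin, was at -2.19 (SE 0.29, adjusted p = 0.00137) in R6/1 and -2.03 (SE 0.25, adjusted p = 0.000933) in R6/2 without it, Actn3, the fast alpha-actinin, at -1.35 and -1.65, and Atp2a1, the fast calcium pump, was called in R6/2 at -1.42. The other calls in R6/2, named for completeness after their values were seen, were Tnni2, fast troponin I, at 49.9% of wild type (SE 0.22, adjusted p = 0.128) and Myoz1, a Z-disc protein of fast fibres, at 49.9% (SE 0.24, adjusted p = 0.164). Of the 9 general striated muscle genes 0 were called in either model as labelled, 0 and 2 with each age fitted on its own, and 2 fell in each without that array. These were Mb, at -2.31 in R6/1 and -1.62 in R6/2, and Tcap, at -1.69 and -1.79. Acta1, skeletal actin, was not called, at -0.62 (SE 0.42) and -1.20 (SE 0.36).

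Slow fibre genes were mixed. Of 8 measured, 7 passed the filter, and none was called as labelled in the main fit. With the labels kept and each age fitted on its own, Casq2 rose in R6/1 (1.63, SE 0.23, adjusted p = 0.0765) and Tnni1, slow troponin I, fell in R6/2 (-0.51, SE 0.11, adjusted p = 0.19). Without that array 1 fell and 1 rose in R6/1: Tpm3, slow tropomyosin, at -0.90 (SE 0.19, adjusted p = 0.0802), and Casq2, the calsequestrin of slow and cardiac muscle, at 1.64 (SE 0.38, adjusted p = 0.123). Casq2 was at 7.19, 6.79 and 6.17 in R6/1 and at 4.86 to 5.24 in all 4 wild type arrays. For this gene the array labelled replicate 4, at 5.14, lay with wild type and apart from R6/1. In R6/2 Casq2 was at 0.93 (SE 0.33, adjusted p = 0.396) and was not called, at 6.06, 4.31, 5.93 and 4.80 against 3.93 to 4.64 in wild type of 9 weeks. Csrp3, muscle LIM protein, was at 0.71 (SE 0.18, adjusted p = 0.225) in R6/1 and was not called.

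No call was made, with or without that array, among 7 cardiac genes, 7 smooth muscle genes, 6 other light chain genes or the 10 measured of 14 genes of light chain phosphorylation. Part of these missed the variance filter and could not be called. As labelled, 4 cardiac, 3 smooth muscle, 4 other light chain and 8 phosphorylation genes were tested. Without that array the tested genes were 4, 5, 4 and 4 in that order. The values that follow are without that array. Actc1, cardiac actin, was at -1.03 (SE 0.36, adjusted p = 0.387) in R6/2. Acta2, smooth muscle actin, was at 0.09 (SE 0.14) in R6/1 and 0.11 (SE 0.12) in R6/2, and Cnn1, calponin, at -0.48 (SE 0.55) and -0.59 (SE 0.48). Among light chains of smooth muscle and non-muscle cells, Myl6 was at 0.51 (SE 0.26), Myl12a at 0.31 (SE 0.21) and Myl12b at 0.14 (SE 0.12) in R6/2. Of the phosphatase that reverses the kinases, the catalytic subunit Ppp1cb was at 0.13 (SE 0.10) and the targeting subunit Ppp1r12b at -0.29 (SE 0.15) in R6/2, and Cdc42bpa, a myosin kinase regulated by Cdc42, was at 0.30 (SE 0.16).

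Other tissues of the eye also varied between groups. The mean of 5 cone genes ran from 5.92 to 6.53 in wild type replicates 1 to 3 at 6 months, was 3.72 in replicate 4 and ran from 3.31 to 3.51 in R6/1, from 5.53 to 6.38 in wild type at 9 weeks and from 3.45 to 3.88 in R6/2. The mean of 5 lens genes was 9.37 to 9.61 at 6 months, 9.36 to 9.94 in wild type and 9.96 to 10.0 in R6/2 at 9 weeks. The mean of 5 orbital gland genes, which mark tissue outside the globe, ran from 2.49 to 3.15 at 6 months, from 2.41 to 5.88 in wild type at 9 weeks and from 2.57 to 4.72 in R6/2, and that of 4 adipocyte genes from 3.29 to 4.68 in wild type and 3.28 to 4.35 in R6/2 at 9 weeks. The part of tissue composition in the change of Mylk4 was not tested, and only its difference from striated muscle genes within each array was taken.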

How the data were processed

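The authors deposited one table of log2 expression values, made by RMA in the affy package per the labels, for 41345 probe sets of 15 arrays. The genome build behind the array annotation was not given in the sources used here. Probe sets were named through the platform annotation: 23521 had 1 symbol, 1820 several and 16004 none, and single-symbol probe sets gave 22180 genes, each by its probe set with the highest mean. Each of the 10 genes had 1 probe set. Group means were fitted with limma 3.58.1 in R 4.3.3 on 15 arrays after dropping the lower 50% of genes by interquartile range, and p-values were Benjamini-Hochberg adjusted over 11090 genes. The number of arrays limits the precision.

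Deviations from the group means correlated at 0.41, 0.34 and 0.75 between same-numbered wild type and R6/1 arrays. These numbers were taken as pairs, from the data and not the labels. Between arrays of different number r ran from -0.55 to 0.31, so the 0.34 stood little apart. The 0.75 joined the 2 arrays with the smallest interquartile range, 2.17 and 2.26. At 9 weeks same-numbered arrays were not paired in this way (-0.29 to 0.26). Of each muscle list up to 3 genes with the lowest p as labelled were named, and for Mylpf, Mylk4 and Mylk the 5 most correlated genes. The genes and lists were chosen with earlier results of these data known. For each limma result 32 alternatives were run, 2 of them chosen after seeing the data, as were the alternatives for Mylk4 relative to striated muscle genes. The labels name the IVT Express kit and the methods the WT Plus kit.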

Additional observations from a re-analysis of the deposited data

Results flagged for a closer look

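In groups of 4 arrays, a single array was far from the other 3 in 6 of 30 combinations of gene and group, where chance gives about 1 in 20. In wild type at 6 months the array labelled replicate 4 was far below the others for Myl1 (5.23), Mylpf (6.46), Mylk2 (3.31) and Mylk4 (3.68). The same array is the one whose cone genes were low. For Mylk in the same group replicate 3 was far below the others (4.90), which is also the array of that group with the smallest interquartile range of all values, 2.17 against 2.57 to 2.58. For Myl3 in R6/2, replicate 4 was far above the others (2.64), at a level where expression cannot be told from background.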

How the results depend on the processing

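The causes of these shifts were not tested. In R6/1, 1 of the 10 genes was called lower, in place of 0, with the replicate block, with that array counted as R6/1, with the block without that array and with each age on its own without it, and in each it was Mylk4; array weights called 1 higher, Myl4 (0.87, adjusted p = 0.147). In R6/2, 1 gene was called lower with quantile normalization, Mylk. Mylk4 was the 1 called with each age on its own (with or without that array) and with that array counted as R6/1. The array interquartile range as covariate called 3 (Mylk4, Mylk and Myl6b), and array weights called 4 (these and Myl1). The replicate block called 5, with or without that array: Mylk4, Mylpf, Myl6b, Mylk and Mylk2. With all arrays the last 4 had adjusted p of 0.173 to 0.193. The numbers pair no arrays at 9 weeks. Between wild type ages, 0 were called lower at an adjusted p under 0.05 and 1 with centred arrays (where Mylk missed the variance filter) or with replicate 2 counted as R6/1, 3 with replicate 3 so counted (Myl4 also, at an adjusted p of 0.149), and 1 higher with quantile normalization and 3 with replicate 4 counted as R6/1. The block left no age contrast to estimate, and no age contrast or difference between models could be had with each age on its own. Leaving out 1 array gave 0 to 1 called lower and 0 to 0 higher in R6/1, 0 to 2 lower (Mylk4 without WT 6 months replicate 4, and Mylk4 and Myl6b without WT 9 weeks replicate 3) and 0 to 0 higher in R6/2, 0 to 3 lower and 0 to 3 higher with age, and 0 to 0 in either direction for the difference between models.

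Over all genes, calls in R6/1 as labelled (2 lower, 4 higher) became 0 and 2 with no variance filter, 0 and 1 at an adjusted p under 0.05, with each age on its own or with a filter on dim genes, 0 lower with trended robust variances, 61 and 21 with array weights, 57 and 19 with the block, 6 and 9 with the covariate, 0 and 0 with WT replicate 1, 2 or 3 counted as R6/1, 43 and 10 with replicate 4 so counted, and without replicate 4 55 and 19 with the block and 25 and 9 with each age on its own. In R6/2 (11 and 8) they became 0 and 0 at an adjusted p under 0.05, 30 and 30 with each age on its own (with or without replicate 4), 52 and 70 with quantile normalization, 17 lower with centred arrays, 1107 and 987 with array weights, 339 and 230 with the block, 351 and 236 with the block without replicate 4, 179 and 367 with the covariate, and 1 and 4, 0 and 0, 2 and 4, and 35 and 27 with WT replicates 1 to 4 counted in turn as R6/1. Leaving out 1 array gave 0 to 40 lower and 0 to 11 higher in R6/1, and 1 to 598 and 1 to 249 in R6/2, the most without WT 9 weeks replicate 3 (598 and 249) and replicate 1 (195 and 74).

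The signs that turned were of values not called in the main fit, some of which other fits called (Myl4 in R6/1 with array weights, and Myl4 and Mylk4 with age). In R6/1, with WT replicates 1, 2 and 3 counted in turn as R6/1, Myl1 became 0.012, 0.145 and 0.052 and Mylpf 0.21, 0.191 and 0.073; with replicates 1 and 2, Myl3 became 0.039 and 0.033 and Mylk 0.031 and 0.063; with 1, Myl4 -0.062; with 2, Myl6b -0.015; with 3, Myl2 0.0076 and Mylk3 0.0496; with 4, Mylk 0.012 and Mylk2 -0.441. Mylk2 was -0.226 with the block and in the 3 fits without replicate 4, and Mylpf 0.044 with array weights. Without 1 array the R6/1 changes ran from -0.159 to 0.053 for Myl3, -0.445 to 0.217 for Mylpf, -0.187 to 0.0797 for Mylk, -0.226 to 0.165 for Mylk2 and -0.131 to 0.0058 for Mylk3, and that of Myl3 in R6/2 from -0.022 to 0.083. For the difference between models, with replicate 4 counted as R6/1, Myl1 became -0.125, Myl4 -0.224, Mylpf -0.039 and Mylk4 -0.563; with 1, Myl4 -0.32; with 2, Myl4 -0.063; with 3, Myl2 0.126; Mylk4 was -0.343 with the block. Without 1 array it ran from -0.202 to 0.0105 for Myl3, -0.051 to 0.614 for Myl4 and -0.343 to 0.711 for Mylk4. With age, Myl4 became 0.032 with quantile normalization and 0.13 and 0.076 with replicates 1 and 4 counted as R6/1, and Mylk4 -0.207, -0.123 and -0.054 with replicates 1, 2 and 3; without 1 array they ran from -0.535 to 0.13 and from -0.207 to 0.805. The difference of Mylk4 from striated muscle genes kept its direction in all 9 alternatives in R6/1 (-1.31 to -0.86). It did so in all 10 in R6/2 (-0.96 to -0.62), and all were chosen after seeing the data. The -1.31 and -0.96 are those without Mb and Tcap, genes that fell themselves, and are no check of direction.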
